A study of Mus musculus with 24 samples.

Results

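The miR-23, miR-24 and miR-27 clusters were followed in irradiated mouse lung through 6 mature microRNAs (miRNAs), named mmu-miR-23a-3p, mmu-miR-23a-5p, mmu-miR-23b-3p, mmu-miR-24-3p, mmu-miR-27a-3p and mmu-miR-27b-3p in the files and written without the species prefix below. They were chosen by name and not by a measured value, although earlier results of these data were known. The choice was made from the 1657, 1707 and 1767 mature miRNAs listed at day 14, day 90 and day 180. All 6 are among the 1477 miRNAs listed at every time point. The lungs came from C57BL/6 mice, for which the labels give an age of 6 to 8 weeks in every group. As this age is also given for day 180, it cannot be the age at collection there. The irradiated groups received 15 Gy of X-rays to the whole thorax, and the control groups were not irradiated. Sham handling of the controls is not stated. No genetic alteration is named for any group. Lungs were taken at day 14, day 90 or day 180, with 4 libraries of each kind at each time, which makes 6 groups and 24 libraries. No label ties a library to an animal, so the p-values measure only the spread between these libraries, which may be technical.

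MiR-23, miR-27 and miR-24 are cut from hairpins that lie close together and are transcribed as a unit, once as the a cluster and once as the b cluster. Each hairpin can yield a 5p and a 3p strand, and the strand that is kept pairs through its seed with sites in messenger RNAs. MiR-23 and miR-27 are known in endothelial cells for promoting vessel sprouting through the growth factor inhibitor Sprouty2 and the guidance protein Sema6A. MiR-27 also represses the nuclear receptor PPARG and has been described as restraining myofibroblast differentiation in lung fibroblasts, while miR-24 represses the histone variant H2AX, which marks DNA breaks.

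The mature sequences below show why reads of the a and b clusters can be told apart for some members and not for others. They are RefSeq sequences on the GRCm38.p6 build, printed 5′ to 3′, with the seed (bases 2 to 8) in capitals.
miR-23a-3p: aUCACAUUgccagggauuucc
miR-23a-5p: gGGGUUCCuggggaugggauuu
miR-24-3p: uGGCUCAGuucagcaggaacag
miR-27a-3p: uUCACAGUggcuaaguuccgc
miR-27b-3p: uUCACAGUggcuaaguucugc
miR-24-1-5p: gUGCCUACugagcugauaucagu
miR-24-2-5p: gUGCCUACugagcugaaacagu
MiR-27a-3p and miR-27b-3p have the same seed and differ by a single substitution, C19U, counted from the 5′ end of miR-27a-3p. Their counts are therefore uncertain where the counting could share or split reads. They were identical in 0 of 8 libraries at each time point. This shows only that not every read was counted for both, and leaves partial sharing or splitting undecided. The mature miR-24-3p is identical at its 2 loci, so its count cannot be divided between the clusters. The 5p strands of the miR-24 hairpins, miR-24-1-5p and miR-24-2-5p, share a seed and differ at 5 of the 22 positions compared without gaps. Their sequences differ between the clusters, but how the counting treated mismatched reads is not stated. Spill-over of reads between these strands was not tested. The seeds of miR-23a-3p and miR-27a-3p differ at 1 base. How far reads of miR-23b-3p can be told from those of miR-23a-3p was not checked, and the values that compare them below carry that limit.

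The a cluster lies on the plus strand at chr8:84208518-84208921, a span of 404 bases. It holds Mir23a (chr8:84208518-84208592), Mir27a (chr8:84208672-84208758) and Mir24-2 (chr8:84208815-84208921). Mir24-2 overlaps an exon of the long noncoding RNA gene Gm26532, and no other annotated gene overlaps Mir23a or Mir27a. The b cluster lies on the plus strand at chr13:63300484-63301275, a span of 792 bases. Mir23b (chr13:63300484-63300557) is intronic in the protein-coding gene 2010111I01Rik, while Mir27b (chr13:63300712-63300784) and Mir24-1 (chr13:63301208-63301275) overlap annotated exons of that gene. All 3 b-cluster hairpins also lie inside introns of Fancc, a DNA repair gene on the opposite strand.

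The libraries held 2832205 to 3695133 miRNA counts, and the 6 members together took 5.67% to 10.3% of them. Levels are given as CPM, the library-size-scaled count that edgeR reports after TMM normalisation of the libraries of a time point. Irradiated library 1 at day 180 stood apart, with the fewest counts of all 24 libraries and the lowest median rank correlation with the other libraries of its day (0.914). Fold changes, ratios and correlations that it moves by more than 1.5 times are also given without it, or with its level beside those of the other libraries. Between 499 and 558 miRNAs per time point passed the filter on low counts, and edgeR's quasi-likelihood test with Benjamini-Hochberg adjustment called 0 at day 14, 2 at day 90 and 0 at day 180. In bulk lung, fewer cells of a type and less RNA per cell cannot be told apart.

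No member passed the test between irradiated and control lungs at any of the 3 time points, and DESeq2 and limma also called 0 at each. At day 14, 0 of 6 members tested were called, against 0% of all miRNAs, and the smallest adjusted p among them in edgeR's quasi-likelihood test was 0.907 (smallest unadjusted p 0.112). At day 90, 0 of 5 tested were called, against 0.358% of all miRNAs, with a smallest adjusted p of 0.624 (unadjusted 0.145). At day 180, 0 of 5 tested were called, against 0% of all miRNAs, with a smallest adjusted p of 0.339 (unadjusted 0.0810). MiR-23a-5p did not pass the count filter at day 90 and day 180. The median log2 fold change of the members tested was 0.10 at day 14, -0.03 at day 90 and -0.18 at day 180, beside 0.01, -0.02 and 0.13 for all miRNAs tested. At day 180 all 5 values were below 0, and 1 of the 5 was above 0 without irradiated library 1. Without that library miR-23a-3p was at -0.19, miR-24-3p at -0.07, miR-27b-3p at -0.04 and miR-23b-3p at 0.04. MiR-27a-3p stayed between -0.18 and -0.08 whichever library was left out. The day 180 median of -0.18 therefore rests in part on irradiated library 1. The groups did not overlap for 0 of the 6 members at day 14, where 1.6% of all miRNAs had every irradiated library below every control and 0.802% the opposite. At day 90 the count was 0 of 5, against 2.33% and 4.84%, and at day 180 it was 1 of 5, lower after irradiation, against 6.52% and 5.43%.

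**Figure D1:**
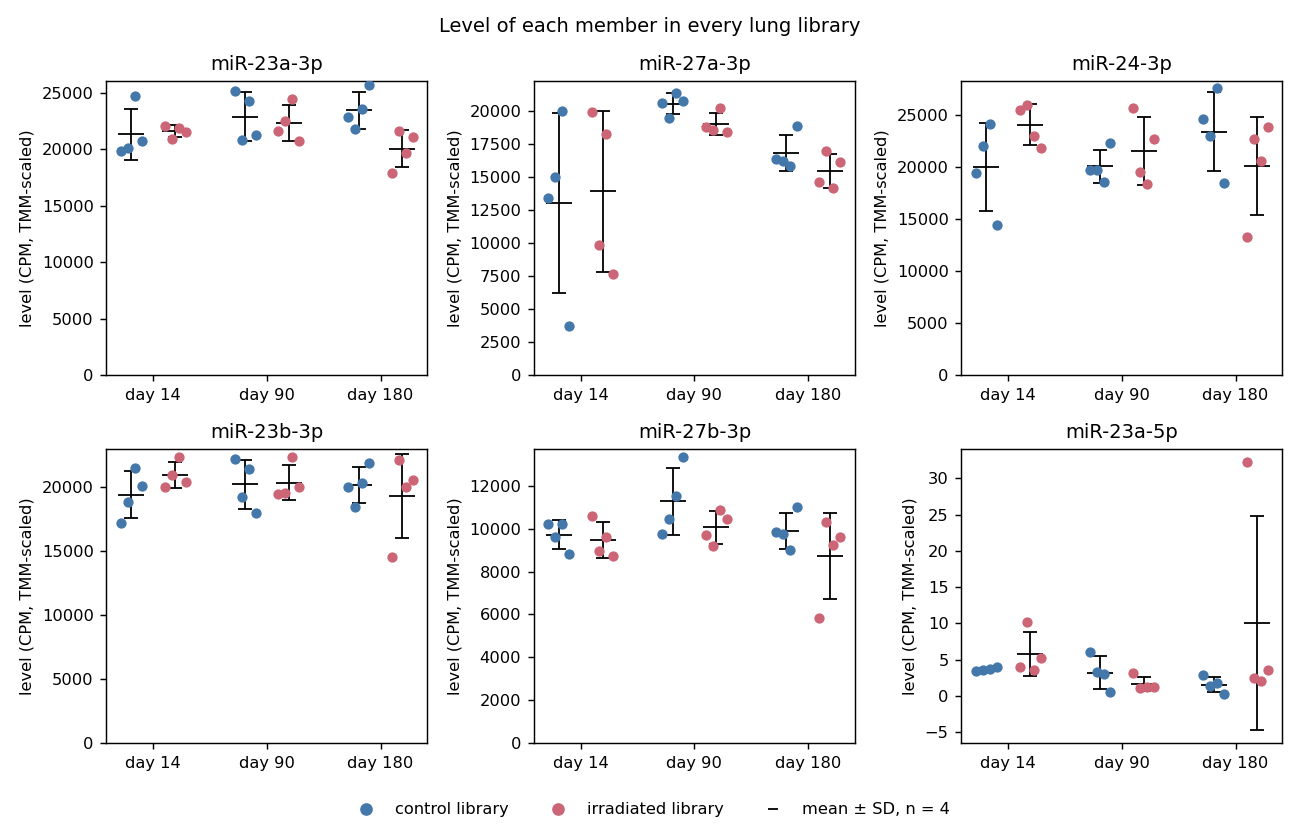
Level of each of the 6 members in every library (CPM after TMM scaling, linear axis from 0 except for miR-23a-5p, whose SD bar extends below 0), by day, with controls in blue and irradiated libraries in red; the bars give the mean ± SD of 4 libraries. The miR-27a-3p panel spreads widely at day 14, from 3729 to 20049 CPM in controls, and on this scaling the 4 irradiated libraries lie below all 4 controls for miR-23a-3p at day 180.

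Among the members, miR-23a-3p, miR-23b-3p and miR-24-3p were the most abundant and were close to each other, with medians of 21636, 20058 and 22144 CPM over the 24 libraries. MiR-27a-3p had a median of 17631 CPM and miR-27b-3p one of 9750.5 CPM. Differences in ligation between sequences affect such comparisons, and their part was not tested. The order of miR-23a-3p and miR-24-3p was not stable, since miR-24-3p had the higher count in 14 of 24 libraries. MiR-23a-3p exceeded miR-23b-3p in 20 libraries and miR-27a-3p in all 24. MiR-23b-3p exceeded miR-27b-3p in all 24 and miR-27a-3p in 21. MiR-23a-5p, the opposite strand of the miR-23a hairpin, had 1 to 78 counts in a library.

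MiR-23a-3p, the a-cluster miRNA named above for vessel sprouting, separated the groups on CPM at day 180 only. The 4 control libraries had 22871, 21795, 23581 and 25658 CPM, and the 4 irradiated libraries had 17875, 21609.5, 19699.8 and 21073 CPM. Every irradiated library was below every control library, a pattern that 6.52% of all miRNAs tested at day 180 showed in this direction and 12% in either direction. The means were 23476 ± 1629.5 CPM in controls and 20064 ± 1667 CPM after irradiation (SD, n = 4 each). The log2 fold change was -0.23 ± 0.12 (SE), with a 95% interval of 0.714 to 1.02 for the fold and an adjusted p of 0.339 by edgeR. Without irradiated library 1 the log2 fold change was -0.19 with an adjusted p of 0.204. The exact two-sided permutation test of these levels gave an unadjusted p of 0.0286, which is the smallest value that 4 against 4 libraries allow. Groups that do not overlap always give this value, so it adds nothing to the separation described. The RPM values of the authors also separated the groups, at 3290.3 to 5157 in irradiated libraries and 5214 to 5719 in controls. As a share of the library's miRNA counts they overlapped, since irradiated library 4 was at 2.27% and control library 2 at 2.23%, so the separation depends on the scaling.

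At the earlier times miR-23a-3p did not separate the groups. At day 14 the control libraries ranged from 19880.1 to 24696 CPM and the irradiated ones from 20892 to 22112 CPM, a log2 fold change of 0.02 ± 0.09 (SE) with a fold interval of 0.878 to 1.16. At day 90 the ranges were 20872 to 25145 CPM in controls and 20754 to 24486 CPM after irradiation, with a log2 fold change of -0.03 ± 0.09 and a fold interval of 0.850 to 1.12. Neither adjusted p (0.978 and 0.944, edgeR) passed. The difference between the radiation effects at day 180 and day 14 was -0.26 ± 0.13 on the log2 scale, with an adjusted p of 0.441 in the joint edgeR fit of all 24 libraries, which called 0 of 624 miRNAs (0%) for this difference and also for the other 2 pairs of days.

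MiR-23b-3p, its relative in the b cluster, overlapped between groups at all 3 times. Its means were 19396 ± 1838 and 20932 ± 1041 CPM at day 14, 20205 ± 1933 and 20355 ± 1366 CPM at day 90, and 20160.4 and 19302 CPM at day 180 (control first, SD, n = 4). The log2 fold changes were 0.11 ± 0.09, 0.01 ± 0.09 and -0.06 ± 0.15 (SE). At day 180 the control libraries held 18473 to 21860.3 CPM, and irradiated library 1, at 14573 CPM, was the only irradiated library below them. The other 3 irradiated libraries held 19973 to 22076 CPM, and without library 1 the log2 fold change was 0.04.

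MiR-27a-3p, the a-cluster miR-27, had the widest spread of the 5 abundant members, and the spread was at day 14 in both groups. The control libraries held 13435, 15046, 20049 and 3729 CPM, and the irradiated libraries held 19957, 9839, 18297 and 7700.1 CPM. Control library 4 was the lowest and control library 3 the highest, so the irradiated values lay inside the control range. The coefficient of variation was 52.3% in controls and 43.6% after irradiation, and the fold interval of 0.498 to 2.29 was correspondingly wide (log2 fold change 0.09 ± 0.48 SE, edgeR adjusted p 0.978). In the same 8 libraries miR-27b-3p ranged from 8714 to 10565 CPM.

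At day 90 miR-27a-3p was tightly grouped. The control libraries held 20664, 19491, 21407 and 20771 CPM, and the irradiated libraries 18794, 18615, 20258 and 18464 CPM. Irradiated library 3 was above the lowest control library, and the other 3 were below all controls. The means of 20583 ± 799 and 19033 ± 828 CPM (SD, n = 4 each) gave a log2 fold change of -0.11 ± 0.07 (SE), an edgeR adjusted p of 0.624, and a fold interval of 0.828 to 1.03. At day 180 the ranges were 15865 to 18859 CPM in controls and 14227 to 16965 CPM after irradiation, which overlapped, with a log2 fold change of -0.12 ± 0.12 and an adjusted p of 0.627. Leaving out 1 library gave -0.18 (irradiated library 2) to -0.08 (control library 4).

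MiR-27b-3p, the b-cluster miR-27 with the same seed, had log2 fold changes of -0.04 ± 0.09 at day 14, -0.17 ± 0.11 at day 90 and -0.18 ± 0.19 at day 180 (SE, edgeR adjusted p 0.978, 0.669 and 0.637). The groups overlapped each time. Without control library 4 the day 90 value was -0.10. At day 180 irradiated library 1 held 5816 CPM, the other 3 irradiated libraries 9222 to 10286 CPM and the controls 8994 to 11011 CPM. Without that library the log2 fold change was -0.04, and without irradiated library 2 it was -0.29.

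MiR-24-3p, which both clusters encode, had the largest abundant-strand fold change at day 14. The control libraries held 19382, 21996, 24157 and 14449 CPM and the irradiated libraries 25499, 25945, 22986 and 21854 CPM. Irradiated libraries 1 and 2 were above all controls, and libraries 3 and 4 were within the control range. The means of 19996 ± 4182 and 24071 ± 1970.1 CPM (SD, n = 4 each) gave a log2 fold change of 0.27 ± 0.15 (SE), an edgeR adjusted p of 0.907 and a fold interval of 0.945 to 1.53. Without control library 4, the lowest of the 8, the log2 fold change was 0.17. At day 90 the log2 fold change was 0.10 ± 0.11 with an adjusted p of 0.811. At day 180 it was -0.22 ± 0.20 with an adjusted p of 0.586, and -0.07 without irradiated library 1, which held 13320.1 CPM against 20598 to 23854 CPM in the other 3. Without control library 4 it was -0.33. The difference between day 180 and day 14 was -0.51 ± 0.24 on the log2 scale, with an adjusted p of 0.413 in the joint edgeR fit, and -0.36 ± 0.21 with an adjusted p of 0.448 without that library.

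**Figure D2:**
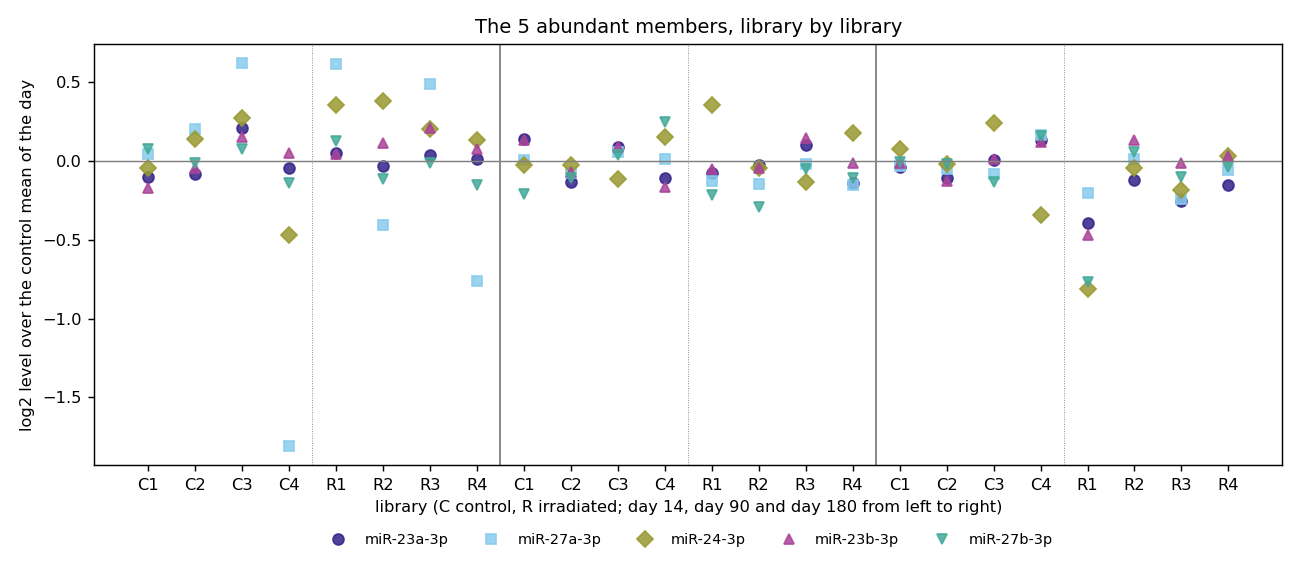
Log2 of each abundant member's CPM over the control mean of its day, for each of the 24 libraries (C control, R irradiated; days 14, 90 and 180 from left to right, separated by solid lines). MiR-27a-3p lies furthest from 0 in control library 4 of day 14, whereas at day 180 all 5 members are low in irradiated library 1.

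The members did not vary as one block from library to library. In irradiated library 1 of day 180 the 5 abundant members averaged 0.53 below the control mean on the log2 scale (-0.53), and 4 of the 5 were lower there than in any other library of the day, the exception being miR-27a-3p. In that library the summed level of the 5 lung epithelium markers was 68709 CPM, against 30447 to 39203 CPM in the other 3 irradiated libraries and 39934 to 43280 CPM in controls. The 2 endothelial markers summed to 57787 CPM there, against 37536 to 43140.4 CPM and 41619 to 46415 CPM. The 2 fibroblast markers summed to 2622 CPM, against 7011 to 12260 CPM and 5729 to 6339 CPM. The erythroid markers summed to 39230 CPM, against 19500 to 27864 CPM and 26723 to 33031 CPM. The smooth muscle markers summed to 40907 CPM, against 29930 to 32061 CPM and 31729 to 40035 CPM. The leukocyte, ciliated, striated muscle and liver sums of that library lay inside the control range. The stratified epithelium sum, 790 CPM, was below the controls (818 to 891 CPM). No marker of the lists given with values was at 0 in any library. The part of cell makeup in the members' low values was not tested.

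Pairs of members were compared as deviations of log2 CPM from the group mean over the 24 libraries, which share their library preparation and scaling. MiR-23a-3p and miR-23b-3p, from different clusters, had a Pearson r of 0.82 (0.85 without irradiated library 1 of day 180). MiR-23a-3p and miR-27a-3p, from the same hairpin transcript, had an r of 0.18. The corresponding value was 0.49 for miR-23b-3p and miR-27b-3p, and 0.0052 without that library. MiR-27a-3p and miR-27b-3p had an r of 0.29, and the rare miR-23a-5p had its strongest r, -0.86, with miR-27b-3p (-0.69 without that library). MiR-24-3p, which belongs to both clusters, had an r of 0.50 with miR-27b-3p (0.12 without that library) and 0.40 with miR-27a-3p (0.47 without it). The pair with the highest Pearson r thus crossed the clusters. The next highest, at 0.50 and 0.49, were pairs that the b cluster encodes together, whose r was low without that library. The Spearman rank correlation gave another order below the first pair, which was at 0.83. MiR-27a-3p and miR-27b-3p, from different clusters, came next at 0.51 (0.61 without that library). MiR-24-3p had a rank correlation of 0.26 with miR-27b-3p and 0.14 with miR-27a-3p. For miR-23b-3p and miR-27b-3p it was 0.29.

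The question of whether the a and b clusters shifted against each other was put to the ratio of counts within each library, which does not depend on scaling. The ratio of miR-23a-3p to miR-23b-3p was close to 1 everywhere, from 0.977 to 1.23 with a median of 1.11. The ratio of miR-27a-3p to miR-27b-3p was higher and more variable, from 0.424 to 2.52 with a median of 1.74. The a cluster supplied 53.6% ± 5.44, 58.0% ± 0.712 and 57.3% ± 0.287 of the miR-23 and miR-27 3p counts in controls at days 14, 90 and 180, and 53.6% ± 3.82, 57.7% ± 1.11 and 56.2% ± 3.56 after irradiation (SD, n = 4 each). At day 180 irradiated library 1 was the highest of the 8 at 61.5%. The other 3 irradiated libraries held 53.7% to 55.2%, below all 4 controls (56.9% to 57.5%), a difference that was described after the values were seen and was not tested.

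Neither ratio passed the exact permutation test between irradiated and control libraries with all 4 libraries a group. For miR-23 the difference in mean log2 ratio was -0.09 at day 14, -0.05 at day 90 and -0.15 at day 180, with exact permutation p-values of 0.143, 0.314 and 0.143 (adjusted over the 6 ratio tests 0.429, 0.629 and 0.429). At day 180 the controls lay between 1.14 and 1.18 as linear ratios, and irradiated library 1 was above them at 1.23. The other 3 irradiated libraries, at 0.979 to 1.02, were below all controls. Without irradiated library 1 the difference was -0.23. Its exact permutation p was then 0.0286 (3 against 4 libraries cannot give less), or 0.171 after adjustment over the 6 tests. Groups that do not overlap always give this unadjusted value, so it restates the separation of the other 3 libraries and adds nothing to it. This leave-out is described after the values were seen. For miR-27 the differences were 0.26, 0.04 and 0.09, with exact permutation p-values of 0.743, 0.743 and 0.943 (adjusted 0.891, 0.891 and 0.943). Leaving out 1 library turned the sign of each miR-27 difference. Without control library 4 the day 14 value was -0.22 and the day 90 value -0.03, and without irradiated library 1 the day 180 value was -0.07.

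**Figure D3:**
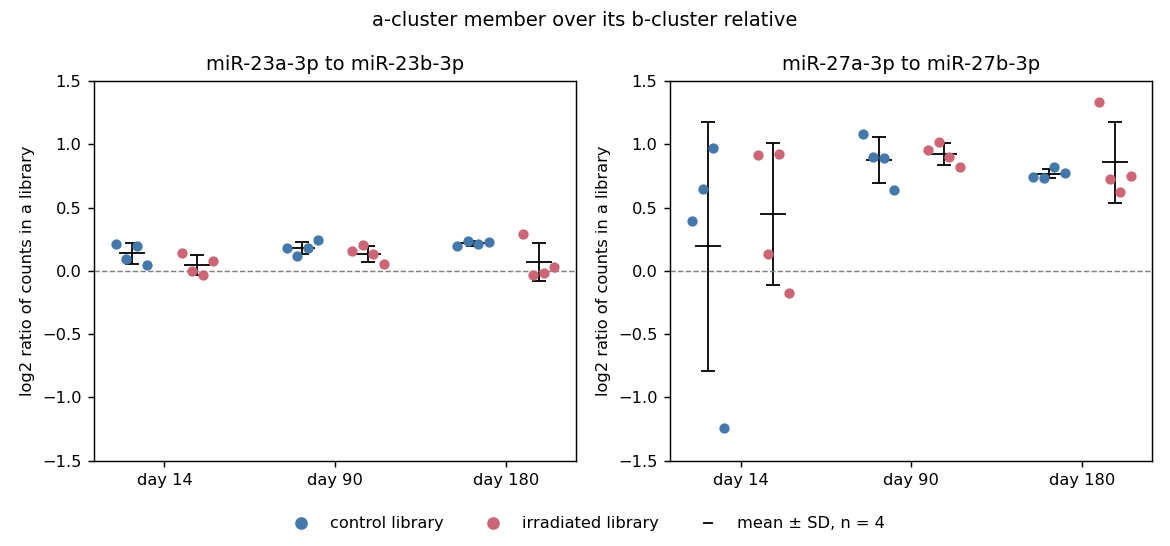
Log2 ratio of the counts of the a-cluster miRNA to its b-cluster relative in each library, for miR-23 (left) and miR-27 (right), with mean ± SD of 4 libraries; 0 marks equal counts. The miR-23 ratios stay between 0.977 and 1.23 on the linear scale, while those of miR-27 reach down to 0.424 in a day 14 control.

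Within a transcript, miR-23a-3p exceeded miR-27a-3p by a median of 1.25 times (1.02 to 5.56) and miR-23b-3p exceeded miR-27b-3p by a median of 2.08 times (1.35 to 2.51). The strand balance also differed among hairpins. The 3p strand exceeded the 5p strand by a median of 6752 times for miR-23a, 60.4 times for miR-27a and 49.0 times for miR-27b, and by 219.7 to 783 times for miR-23b. MiR-24-2-5p of the a cluster exceeded miR-24-1-5p of the b cluster by a median of 21.9 times, with a range of 13.2 to 41.6.

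MiR-23a-5p, the rare strand among the members, is too low for a firm statement. At day 14 the control libraries held 11, 12, 11 and 13 counts and the irradiated ones 12, 31, 11 and 17, with a log2 fold change of 0.64 ± 0.36 (SE), an edgeR adjusted p of 0.907 and a fold interval of 0.883 to 2.73. Without irradiated library 2, which held the 31 counts, it was 0.22. At day 90 the controls held 21, 11, 10 and 2 counts and the irradiated libraries 11, 4, 4 and 5. At day 180 the controls held 11, 5, 6 and 1 counts and the irradiated libraries 78, 9, 8 and 13. Irradiated library 1 was thus far above the other 7 at day 180, at 32.2 CPM, and the other 3 irradiated libraries held 2.02 to 3.59 CPM against 0.309 to 2.92 CPM in controls. The difference between the day 180 and day 90 effects was 3.47 ± 1.14 on the log2 scale, with an adjusted p of 0.269 in the joint edgeR fit, and 1.60 ± 0.83 with an adjusted p of 0.344 without that library.

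The other products of these hairpins comprise 8 listed miRNAs, of which 7 were tested at each time. EdgeR's quasi-likelihood test called 0 of them at each time, against 0%, 0.358% and 0% of all miRNAs at days 14, 90 and 180. Its smallest unadjusted p-values among them on these days were 0.0633, 0.0115 and 0.0157. MiR-3074-5p, cut from the strand opposite the miR-24 hairpins, had at most 21 counts in a library and was not tested. MiR-3074-2-3p lies antisense to miR-24-2-5p, and whether the counting used the strand is not stated. The endothelial and angiogenesis miRNAs chosen as companions of the pathway were all tested (6 of 6). Of these, 0 were called at each time, against the same shares of all miRNAs. Their median log2 fold changes were 0.0012, -0.06 and -0.01, beside 0.01, -0.02 and 0.13 for all miRNAs tested. The groups did not overlap for 0, 0 and 2 of the 6, against 2.4%, 7.17% and 12% of all miRNAs in either direction. Their smallest unadjusted p-values in edgeR's quasi-likelihood test were 0.172, 0.0177 and 0.0281 (smallest adjusted p 0.919, 0.269 and 0.259).

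MiR-24-1-5p, the only strand of the b-cluster miR-24 hairpin whose sequence differs from its a-cluster counterpart, had a higher irradiated mean at each time. At day 14 the controls held 69.8, 56.0, 56.6 and 51.7 CPM and the irradiated libraries 73.7, 75.2, 78.4 and 70.2 CPM, without overlap, a pattern shown by 0.802% of all miRNAs in this direction and 2.4% in either. That separation depends on the scaling, since in the authors' RPM values control library 1 (17.9) was above irradiated library 1 (17.5). At day 90 the controls held 42.8, 66.5, 93.0 and 89.1 CPM and the irradiated libraries 119, 123, 107 and 177 CPM, again without overlap, against 4.84% of all miRNAs in this direction and 7.17% in either. At day 180 the controls held 104, 117, 108 and 94.1 CPM and the irradiated libraries 227, 109, 149 and 127 CPM. Irradiated library 2 was within the control range on that day, and the other 3 were above it.

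The log2 fold changes of miR-24-1-5p were 0.35 ± 0.16 at day 14, 0.85 ± 0.28 at day 90 and 0.53 ± 0.28 at day 180 (SE), and none passed at its time point (edgeR adjusted p 0.883, 0.256 and 0.357). Without irradiated library 1 the day 180 value was 0.26. The mean of the 3 effects in the joint fit, a contrast chosen after these values were seen, was 0.57 ± 0.14 with an edgeR adjusted p of 0.0475, and 13 of 624 miRNAs (2.08%) passed this contrast. That call was kept in 5 of 31 alternatives, DESeq2 and upper-quartile scaling among them, with adjusted p-values from 0.0143 to 0.157, and it was lost when any of 21 of the 24 libraries was left out. The value itself stayed between 0.47 and 0.60 over these leave-outs, and without irradiated library 1 of day 180 it was 0.47 with an adjusted p of 0.0365. With replicate numbers as a block the adjusted p was 0.157. MiR-24-2-5p, its a-cluster counterpart, had log2 fold changes of 0.11 ± 0.11, 0.31 ± 0.13 and -0.03 ± 0.22 at the same times, and its day 90 adjusted p was 0.383. At day 180 irradiated library 1 held 3210 CPM of miR-24-2-5p, the other 3 irradiated libraries 1973 to 2202 CPM and the controls 1965 to 2656 CPM. The value of -0.03 therefore rests in part on that library. The ratio of miR-24-2-5p to miR-24-1-5p at day 90 was 23.4 to 41.6 in controls and 15.7 to 21.1 after irradiation, without overlap. At the other times these ratios overlapped. The ratio was one of 10 described over the libraries and was not tested.

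**Figure D4:**
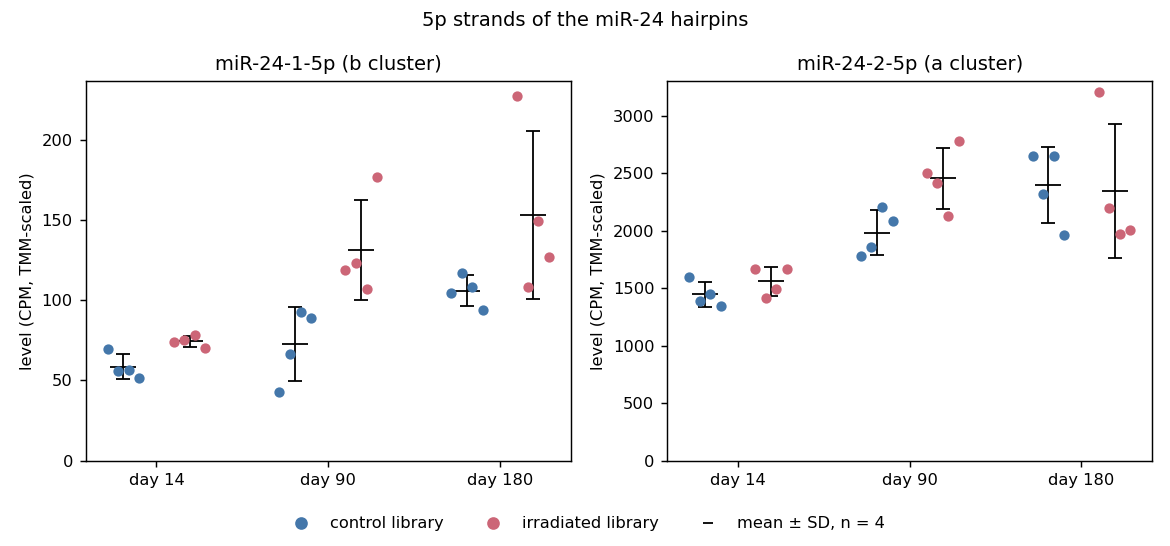
Level (CPM after TMM scaling, axis from 0) of the 5p strands of the b-cluster (left) and a-cluster (right) miR-24 hairpins in every library, with mean ± SD of 4 libraries. On this scaling the irradiated libraries of miR-24-1-5p lie above all controls at days 14 and 90 (at day 14 they overlap in the authors' RPM values), and irradiated library 1 is the highest of day 180 at 227 CPM.

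The remaining 5p strands had their largest fold changes at day 180. MiR-23b-5p averaged 33.2 ± 5.40 CPM in controls and 66.4 ± 27.6 CPM after irradiation (SD, n = 4 each), a log2 fold change of 1.00 ± 0.34 (SE), and edgeR gave an adjusted p of 0.259. Leaving out irradiated library 1 gave 1.20 and an edgeR adjusted p of 0.0554. Irradiated library 1 was within the control range, at 35.1 CPM, and the other 3 were above it, at 51.7 to 93.7 CPM. The ratio of miR-23b-3p to miR-23b-5p did not overlap on that day, at 517 to 672 in controls and 219.7 to 427 after irradiation. This ratio was not tested, and the 3p to 5p ratios of miR-23a, miR-27a and miR-27b overlapped on the same day. MiR-27a-5p had a log2 fold change of 0.69 ± 0.31 with an edgeR adjusted p of 0.277 at day 180, and 0.42 without irradiated library 1, its highest library at 717 CPM. At day 14 control library 1 held 12.4 CPM of miR-27a-5p, or 40 counts, against 183 to 257 CPM in the other 3 controls. MiR-27a-3p in that same library was 13435 CPM, so the low 5p value and the low 3p value of day 14 fell in different libraries.

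**Figure D5:**
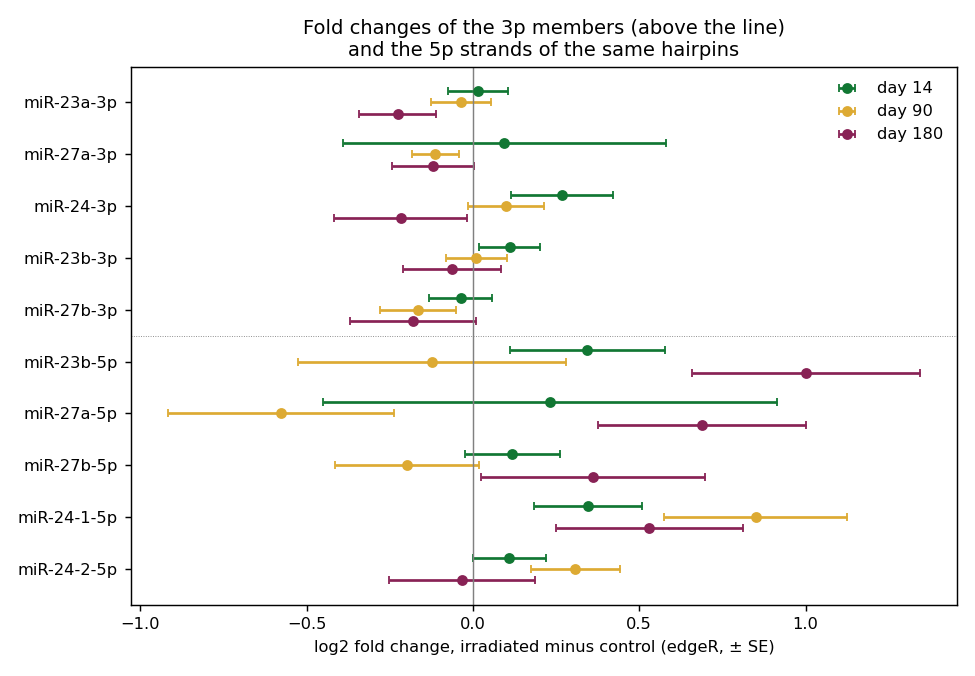
Log2 fold change of irradiated over control libraries (edgeR estimate ± SE, 4 libraries against 4) for the 5 abundant members above the dotted line and the 5p strands below it, by day. The abundant strands lie between -0.23 and 0.27, whereas the 5p strands range from -0.58 to 1.00.

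Control levels on one scaling over all 24 libraries allow days to be set side by side, with the limit that the 3 time points come from separately deposited tables. The age of the mice at collection may also differ between the days, and its part was not tested. MiR-27a-3p averaged 14537 ± 7671 CPM at day 14, 19415 ± 953 CPM at day 90 and 16100.4 ± 1265 CPM at day 180 (SD, n = 4). MiR-24-1-5p held 59.4 to 77.5 CPM in day 14 controls, 41.1 to 88.7 CPM in day 90 controls and 90.1 to 112 CPM in day 180 controls, so the day 180 controls were above both earlier groups.

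The miRNAs outside the 6 members whose deviations were most like each member's were sought among 217 such miRNAs with a mean of at least 100 CPM, over 24 libraries that share preparation and scaling. MiR-27a-3p was most like miR-33-5p (r = 0.91, and 0.92 without irradiated library 1 of day 180) and miR-339-3p (r = 0.82, and 0.90 without). At day 14 miR-33-5p held 2078, 3255, 3503 and 258 CPM in controls and 4519, 980.4, 3436 and 1141 CPM after irradiation. Its low libraries, control 4 and irradiated 2 and 4, were the 3 lowest for miR-27a-3p too. MiR-23b-3p was most like miR-497a-5p (0.81) and miR-1843a-3p (0.78), and without that library these were 0.64 and 0.59 and ranked 18 and 23. Its r with the member miR-23a-3p, 0.82, was higher than either. MiR-27b-3p was most like miR-15b-5p (0.85) and miR-350-3p (0.84), with 0.64 and 0.59 (ranks 5 and 7) without it. MiR-23a-5p was most like miR-338-5p (0.82) and miR-1198-5p (0.80), with 0.62 and 0.50 (ranks 2 and 5) without it. MiR-23a-3p was most like miR-338-3p (0.66) and miR-191-5p (0.59), with 0.62 and 0.55 (ranks 12 and 21) without that library. MiR-24-3p was most like miR-96-5p (0.71) and miR-153-3p (0.67), with 0.54 and 0.49 (ranks 2 and 6) without it. Except for miR-27a-3p, whose nearest miRNAs kept ranks 1 and 2, the nearest miRNAs therefore rest in part on that library.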

How the data were processed

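Small RNA of 18 to 30 nt was cut from a gel, ligated to adaptors and sequenced, per the labels' protocols. The authors deposited whole-number read counts per mature miRNA and library, not normalised, and RPM values, which the authors scaled to a total larger than the table's sum. The submitters' processing notes list Bowtie2 and the build GRCm38.p6. Use of molecular identifiers is not stated. Counts were analysed with edgeR 4.0.16 in R 4.3.3: filterByExpr, TMM, quasi-likelihood test, Benjamini-Hochberg adjustment, threshold 0.05, each day alone (4 against 4 libraries) and one joint fit for differences between days. The fits were tested on simulated data. Ratios of counts within a library were compared by exact two-sided permutation tests. Alternatives were size factors, upper-quartile scaling, no filter, limma 3.58.1, DESeq2 1.42.0, the newer edgeR fit, a replicate block and leaving out each library. The mean effect over days was chosen after seeing the data. The named miRNAs are the 6 members, the 8 other products of their hairpins and, per member, the 2 most alike miRNAs. Members and lists were chosen with earlier results of these data known. Same-numbered libraries deviated together at day 14 (r from 0.16 to 0.46 over 4 pairs) but not in every pair at day 90 (r from -0.20 to 0.37) or in any at day 180 (r from -0.37 to -0.12). Numbers may therefore pair libraries at day 14, which is read from the data and not from the labels. Apart from the replicate block, the p-values, intervals and SEs given treat the libraries as unpaired, at day 14 too.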

Additional observations from a re-analysis of the deposited data

Results flagged for a closer look

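In 102 groups of 4 libraries (levels of members and hairpin products, and their log2 ratios), 7 had a library far from the other 3 by Dixon's criterion, and chance gives about 1 in 20. MiR-23a-5p held 32.2 CPM in irradiated library 1 of day 180 (median of the others 2.54) and 3.13 CPM in irradiated library 1 of day 90 (others 1.19). MiR-23b-5p held 96.9 CPM in control library 1 of day 90 (others 30.5), and miR-3074-1-3p held 5.83 CPM in control library 3 of day 180 (others 8.51). The log2 ratio of miR-23a-3p to miR-27a-3p was 2.47 in control library 4 of day 14 (others 0.42). The log2 ratio of miR-23b-3p to miR-27b-3p was 0.92 in irradiated library 1 of day 14 (others 1.22) and 1.33 in irradiated library 1 of day 180 (others 1.10).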

How the results depend on the processing

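No alternative made a call among the 6 members, in 16 alternatives per day and 31 per difference between days. With the replicate block, 0 members were called at days 14, 90 and 180, and the block changed no other call than that of the mean effect of miR-24-1-5p given above. Of 367 fold changes under alternatives, 326 kept direction and call and 15 turned sign. Upper-quartile scaling gave 0.028 for miR-27b-3p at day 14 and 0.0098 for miR-23a-3p at day 90, and size factors and DESeq2 each gave -0.0064 for miR-23b-3p at day 90. The median in place of the mean gave -0.022 for the miR-27 ratio at day 180. The cause was not tested. Leaving out 1 library gave, at day 14, -0.19 to 0.40 for miR-27a-3p and -0.069 to 0.028 for miR-27b-3p. It gave -0.067 to 0.041 for miR-23b-3p and -0.014 to 0.16 for miR-24-3p at day 90, and -0.15 to 0.040 for miR-23b-3p at day 180. The miR-27 ratio moved from -0.22 to 0.52, -0.035 to 0.11 and -0.068 to 0.17 at the 3 times. Upper-quartile scaling moved the median of all miRNAs for the day 180 minus day 90 difference from 0.08 to 0.20 on the log2 scale. With 4 libraries a group, changes inside the fold intervals given are not excluded, and miR-23a-5p is limited further by its low counts.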
